A study of Mus musculus with 2 samples.

Results

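TET2 peaks at the annotated starts of noncoding genes were examined in adipocytes that were differentiated in vitro from inguinal adipose-derived stem cells of the mouse. A peak was included when it lay on an autosome, when its midpoint was within 1 kb of a transcription start site (TSS) of a GENCODE M21 gene that is not protein coding, and when that midpoint was more than 1 kb from every transcript TSS of the protein coding genes. This gave 639 of the 13828 autosomal peaks, or 4.62% (exact 95% binomial interval 4.28 to 4.98), out of 14103 peaks deposited in all. Their nearest noncoding TSSs belonged to 635 genes. Of the remaining autosomal peaks, 5103 were within 1 kb of a coding TSS and 8086 were more than 1 kb from any TSS.

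The experiment consisted of 1 TET2 chromatin immunoprecipitation (ChIP) library and 1 Input library, both from primary cells that had been induced with IBMX, dexamethasone and insulin and then kept in insulin. No untreated or TET2-deficient cells belong to the experiment. The peak list carries no read totals, and the study states its sequencing yield only as a volume of data, so the depth of each library is unknown. There is no replicate error, and each interval below covers counting error only. Gene expression was not measured, so the adipocyte identity of the cells could not be checked against marker genes.

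TET2 is a dioxygenase that oxidises 5-methylcytosine in DNA, mostly at CpG dinucleotides, and it has no CpG-binding domain of its own, being brought to DNA by partner proteins. Noncoding genes include long intergenic RNAs (lincRNAs), RNAs antisense to coding genes, microRNAs (miRNAs), which pair with mRNAs through a short seed, and pseudogenes. A processed pseudogene is a copy of a spliced mRNA that was reverse transcribed and inserted elsewhere in the genome, usually without the promoter of its parent gene.

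Sequences at the centres of lincRNA and miRNA peaks are shown first, to display how far the members range in CpG content. Each is the GRCm38 sequence 75 bp either side of the peak midpoint (151 bases), read 5′ to 3′ on the strand of the noncoding gene, with every CpG in capitals.
Mir203 (chr12:112130544-112130694, plus strand): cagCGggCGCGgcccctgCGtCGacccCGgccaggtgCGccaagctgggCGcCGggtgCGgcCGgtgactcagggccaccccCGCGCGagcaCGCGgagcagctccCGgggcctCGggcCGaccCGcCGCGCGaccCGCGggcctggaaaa
Snhg6 (chr1:9943932-9944082, minus strand): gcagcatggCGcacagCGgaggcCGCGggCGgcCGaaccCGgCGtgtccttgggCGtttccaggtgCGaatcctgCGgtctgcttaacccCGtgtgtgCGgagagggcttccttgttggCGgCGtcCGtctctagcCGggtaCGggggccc
Miat (chr5:112228803-112228953, minus strand): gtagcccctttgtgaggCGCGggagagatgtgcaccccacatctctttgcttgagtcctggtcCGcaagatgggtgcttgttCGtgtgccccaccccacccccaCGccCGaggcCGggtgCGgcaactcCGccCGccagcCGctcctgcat
C130071C03Rik (chr13:83720919-83721069, plus strand): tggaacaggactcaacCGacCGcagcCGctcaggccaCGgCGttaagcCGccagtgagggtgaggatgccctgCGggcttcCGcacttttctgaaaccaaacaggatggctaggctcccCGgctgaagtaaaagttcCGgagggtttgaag
Neat1 (chr19:5845087-5845237, minus strand): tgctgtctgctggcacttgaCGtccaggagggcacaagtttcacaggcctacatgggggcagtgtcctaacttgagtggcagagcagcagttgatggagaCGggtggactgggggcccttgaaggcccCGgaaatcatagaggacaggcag
Malat1 (chr19:5796557-5796707, minus strand): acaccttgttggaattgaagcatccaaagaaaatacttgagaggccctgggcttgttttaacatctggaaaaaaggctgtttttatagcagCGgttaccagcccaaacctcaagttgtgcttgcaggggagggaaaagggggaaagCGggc
These windows held 25 CpGs at Mir203, 18 at Snhg6, 11 at Miat, 10 at C130071C03Rik, 3 at Neat1 and 2 at Malat1.

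Pseudogenes were the most frequent class, with 354 of the 639 members (55.4%, 51.4 to 59.3), of which 292 were processed pseudogenes and 20 were transcribed processed pseudogenes. LincRNA genes followed with 101 members (15.8%, 13.1 to 18.9), antisense genes with 71 (11.1%, 8.78 to 13.8) and miRNA genes with 38 (5.95%, 4.24 to 8.07). The rest comprised 34 members at TEC genes (transcribed loci whose status is still provisional), 19 at other small RNA genes, 19 at other long noncoding genes and 3 at antigen receptor segments. A second noncoding gene had a TSS within 1 kb in 45 members. These counts depend on how many genes of each type are annotated. Pseudogenes were also the most numerous type among the autosomal noncoding genes away from coding TSSs, with 11393 of 27326. The share of each type that had a peak is given below.

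Peak strength was described by the −log10 p deposited with each peak, a value computed by the authors' peak caller. It ran from 3.07 to 202 over the members, with 67 of the 639 below 5. The median was 7.16 over the members (quartiles 5.89 and 8.53), 6.90 over the coding promoter peaks and 6.21 over the peaks away from every TSS. By class it was 7.34 at pseudogenes, 7.16 at lincRNAs, 6.89 at miRNAs and 6.62 at antisense genes, with quartiles that overlapped throughout. Values of 10 or more were found in 66 pseudogene members (18.6%, 14.7 to 23.1), 10 lincRNA members and 2 antisense members (2.82%, 0.343 to 9.81), against 10.7% of the coding promoter peaks. Peaks of 1 library are not replicates of one another, so no test was made between classes.

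**Figure D1:**
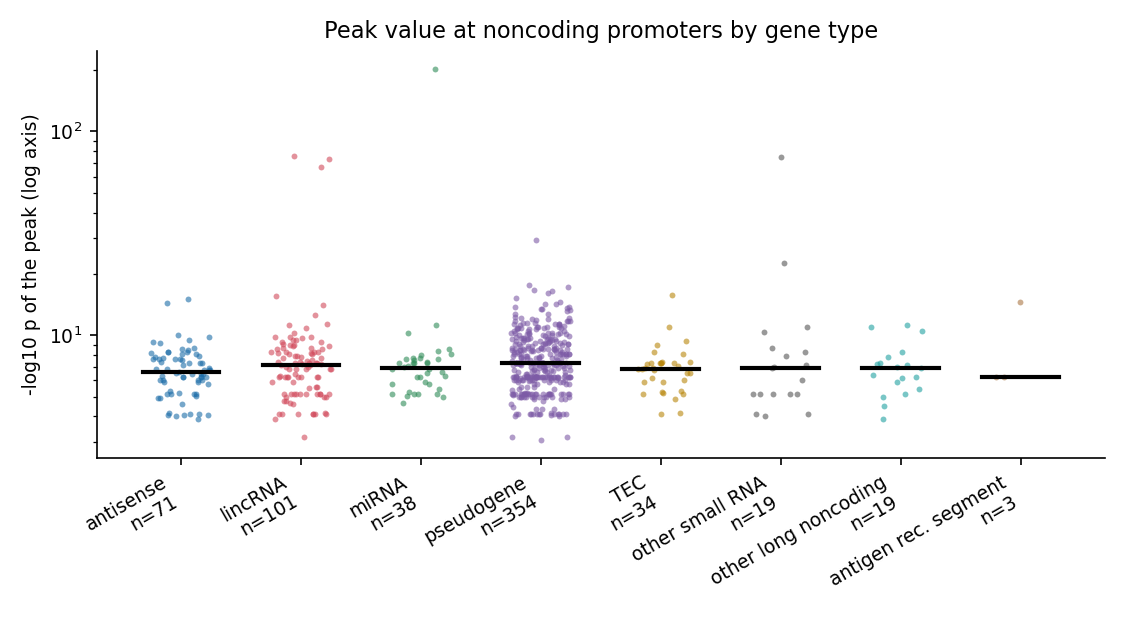
The −log10 p of each of the 639 members (vertical log axis) by gene type, with 1 point per peak, random sideways scatter within a type and a black line at the median. Medians of the 4 largest types lie between 6.62 and 7.34, and the highest points are 202 in the miRNA type and 66.9 to 76.2 in the lincRNA type.

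Midpoints were concentrated around the TSS. Within 200 bp of it lay 330 members (51.6%, 47.7 to 55.6), and 369 (57.7%, 53.8 to 61.6) were at or downstream of it. Pseudogene peaks were the closest, with 60.2% (54.9 to 65.3) within 200 bp, compared with 42.6% (32.8 to 52.8) at lincRNAs and 42.3% (30.6 to 54.6) at antisense genes. The annotated start of a pseudogene need not be a start of transcription. A RefSeq noncoding transcript started within 1 kb of 9.89% of the pseudogene members. At miRNA genes, whose annotated start is that of the hairpin and not that of the primary transcript, 18 of 38 midpoints were at or downstream of it. Next to the 1 kb limit on the noncoding side, the peaks at 2410080I02Rik (992 bp) and Gm15394 (995 bp) were included with −log10 p of 4.60 and 5.00, while those near Gm32996 (1001 bp) and Gm37131 (1002 bp), with 7.37 and 8.51, were not. On the coding side the peaks at Gm10419 and Pcsk2os1 were included at 1011 and 1029 bp from a coding TSS, and those at Gm13256 (992 bp) and Gm44729 (996 bp) were left out.

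**Figure D2:**
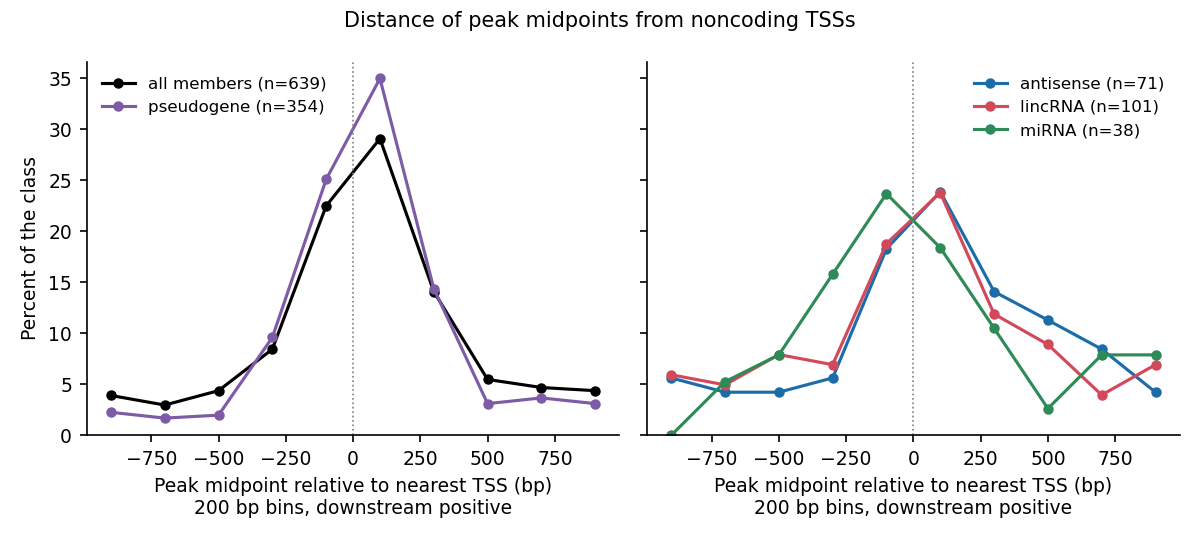
Percent of each class (vertical axis) whose peak midpoint falls in each 200 bp bin around the nearest noncoding TSS (horizontal axis, bp, downstream positive), for all members and pseudogenes on the left and antisense, lincRNA and miRNA genes on the right. The bin just downstream of the TSS holds 35.0% of the pseudogene peaks and 23.8% of the lincRNA peaks.

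Position relative to coding genes separated the classes. Inside a coding gene lay 195 members (30.5%, 27.0 to 34.2). This applied to 61 of 71 antisense members (85.9%, 75.6 to 93.0), which follows from how that type is annotated, and 37 of these 71 midpoints were over an exon of a coding transcript. Of the lincRNA members 9 of 101 (8.91%, 4.16 to 16.2) were inside a coding gene, and of the pseudogene members 75 of 354 (21.2%, 17.0 to 25.8). The 20 miRNA members inside a coding gene were on its strand in 14 cases. The nearest coding TSS was a median of 4514 bp away at antisense genes and 29745 bp away at pseudogenes, and 459 members (71.8%) were more than 10 kb from one.

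A sequence was called CpG-rich when the 250 bp either side of the midpoint had a GC content of at least 50% and a ratio of observed to expected CpG of at least 0.6. By this measure 255 members were CpG-rich (39.9%, 36.1 to 43.8), compared with 79.2% (78.1 to 80.3) of the coding promoter peaks and 11.8% (11.1 to 12.5) of the peaks away from every TSS. The share was 47.5% (37.5 to 57.7) at lincRNAs, 43.7% (31.9 to 56.0) at antisense genes, 37.9% (32.8 to 43.1) at pseudogenes and 26.3% (13.4 to 43.1) at miRNAs, and these intervals overlap. Median GC content was 57.3% over the members, 66.3% at coding promoter peaks and 52.7% away from TSSs. Repeat-masked bases made up at least 50% of the peak in 55 members (8.61%), against 42.4% of the peaks away from TSSs.

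**Figure D3:**
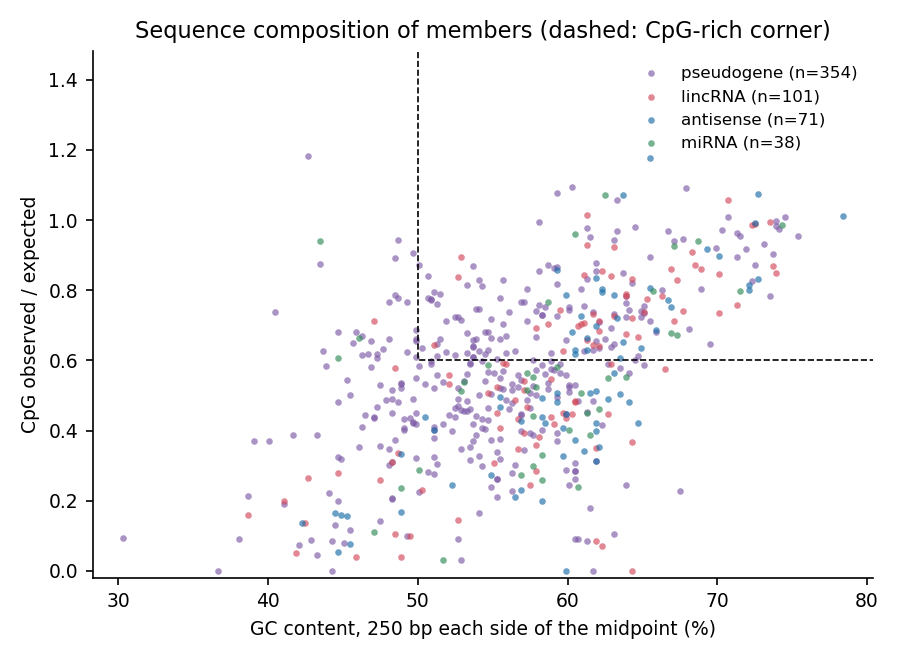
CpG observed over expected (vertical axis) against GC content in percent (horizontal axis) over 250 bp either side of the midpoint, with 1 point per member of the 4 largest types and dashed lines around the CpG-rich corner. Members of each type lie on both sides of the lines, with 134 of 354 pseudogene and 48 of 101 lincRNA members in the corner.

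The same question was asked from the side of the genes. Of 27326 autosomal noncoding genes whose TSSs were all more than 1 kb from every coding TSS, 694 (2.54%) had a peak midpoint within 1 kb of a TSS, whereas 5318 of 20807 coding genes (25.6%) did. Each gene was classed as CpG-rich or not over 250 bp either side of its 5′ end only, whereas a peak could be near any of its TSSs. A gene outside the CpG-rich class could thus be counted for a peak at another TSS that is CpG-rich. Most noncoding genes were poor in CpG at the 5′ end, only 943 of the 27326 being CpG-rich. Among the CpG-rich ones 228 had a peak (24.2%, 21.5 to 27.0), and among the others 466 (1.77%, 1.61 to 1.93). For coding genes the corresponding shares were 38.3% (37.4 to 39.3) and 13.4% (12.7 to 14.0). The noncoding shares were therefore below the coding ones in both sequence classes, outside counting error. The 2 classes did not equalise composition. Median GC content was 57.9% at CpG-rich noncoding TSSs and 64.9% at CpG-rich coding ones, and 45.1% and 49.3% at the others. Neither GC content within a class nor the number of annotated TSSs per gene was adjusted for in this comparison. Without the split by sequence, 4.18% of antisense genes (3.31 to 5.20) and 3.18% of pseudogenes (2.86 to 3.52) had a peak. The share was 3.09% of miRNA genes (2.32 to 4.02) and 2.30% of lincRNA genes (1.90 to 2.77). The pseudogene interval overlapped those of antisense and miRNA genes and was above that of lincRNA genes. Across types, genes with a CpG-rich 5′ end had a peak in 30.2% of pseudogenes (25.8 to 34.9), 26.2% of antisense genes (17.2 to 36.9), 25.9% of miRNA genes (15.3 to 39.0) and 22.2% of lincRNA genes (16.4 to 29.0). Genes without one had a peak in 2.18%, 3.13%, 2.29% and 1.53%, in the same order. Other small RNA genes had a peak in 7 of 101 with a CpG-rich 5′ end (6.93%, 2.83 to 13.8) and in 0.667% of the others.

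**Figure D4:**
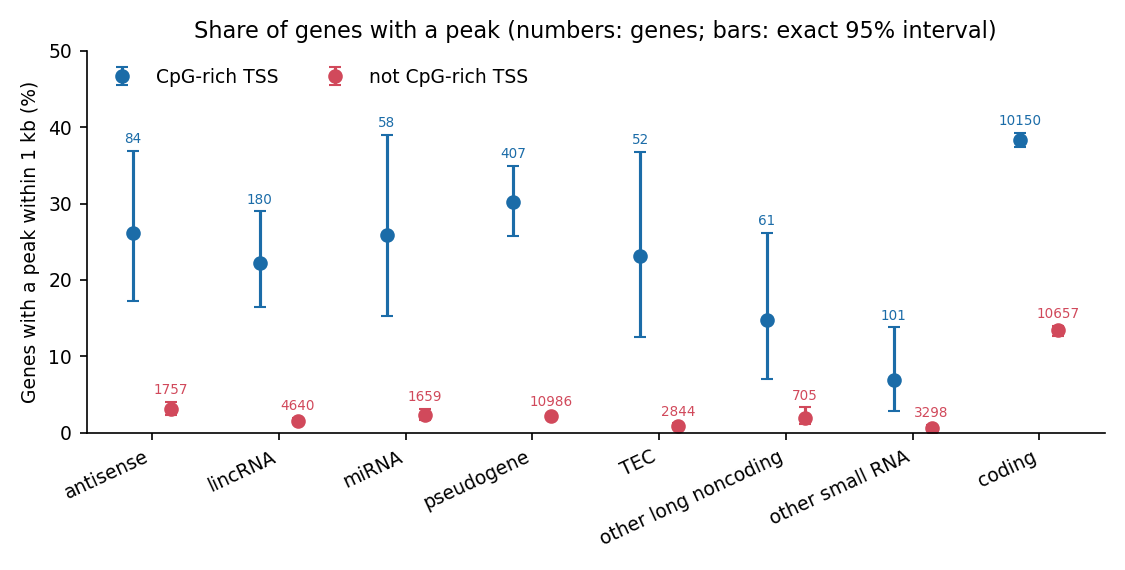
Percent of genes with a peak midpoint within 1 kb of any of their TSSs (vertical axis) for noncoding types and coding genes. Genes are split by whether the gene 5′ end was CpG-rich (blue) or not (red). Bars are exact 95% binomial intervals, with the number of genes above each. Every noncoding type shown has a higher share among genes with a CpG-rich 5′ end, from 6.93% to 30.2%, than among the others, from 0.667% to 3.13%.

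Strings of bases bound by known factors were searched on both strands 100 bp either side of each midpoint. For noncoding TSSs without a peak the window was centred on the gene 5′ end instead, so the windows are not placed alike. A match describes the sequence and is not a binding site, and strings of G and C can overlap one another. GGGCGG, the core bound by SP1, occurred in 28.2% of the members (24.7 to 31.8), in 47.0% of coding promoter peaks, in 13.7% of peaks away from TSSs and in 4.53% of the noncoding TSSs without a peak. Median GC content of these windows was 61.7%, 68.2%, 57.7% and 46.3%, in the same order. Among CpG-rich sequences only, the share was 42.7% (36.6 to 49.1) in members and 40.0% (36.4 to 43.7) at noncoding TSSs without a peak. GCCNNNGGC, bound by AP-2 factors, was found in 20.2% of the members (17.1 to 23.5). Its share in CpG-rich sequences was 29.4% (23.9 to 35.4) in members, 29.7% in coding promoter peaks and 17.5% (14.8 to 20.5) at noncoding TSSs without a peak, where GC content was lower (61.2% against 66.7% in the members). TTNNGCAA, the string of the adipogenic C/EBP factors, was found in 26 members (4.07%, 2.67 to 5.91), compared with 2.55% of coding promoter peaks, 5.53% of the peaks away from TSSs and 8.17% of noncoding TSSs without a peak. The remaining strings were rarer. The E-box CACGTG was in 4.69% of the members and 2.50% of noncoding TSSs without a peak, the ETS core CCGGAAG in 3.76% and 1.59%, and the cAMP response element TGACGTCA in 0.469% and 0.289%. The NRF1 motif was in 4 members (0.626%) and 0.0413% of those TSSs, and the CTCF motif in 0.469% and 0.402%. Among CpG-rich sequences only, the differences were smaller or reversed. The E-box was in 6.27% of the members and 5.03% of the TSSs without a peak, and the ETS core in 5.49% and 5.31%. In the same order C/EBP had 1.57% (0.429 to 3.97) and 3.36% (2.16 to 4.95), the cAMP response element 0.392% and 1.26%, NRF1 0.392% and 0.280%, and CTCF 0.392% and 1.12%. Each 0.392% rested on 1 of 255 members, and the intervals of the members and of the TSSs without a peak overlapped for each of these strings. The YY1 string AAGATGGCG was in 7 members, all of them at pseudogenes, in 5.27% of the peaks away from TSSs and in 0.571% of noncoding TSSs without a peak.

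Pseudogene members resembled coding mRNAs by construction, and 338 of the 354 (95.5%) could be matched to a parent among coding transcripts, with 270 distinct parents. Rps2, a ribosomal protein of the small subunit, was the parent of 10 members among 120 pseudogenes of this gene examined, Rpl36 of 6 among 34, and Cdv3 of 5 among 12. Ribosomal protein genes, which have given rise to very many mouse pseudogenes, were the parents of 35 members (10.4%), and a peak was present at 1.90% (1.33 to 2.62) of their pseudogenes and at 4.09% (3.66 to 4.56) of those with other parents. Of 264 autosomal parents, 106 (40.2%, 34.2 to 46.3) had a TET2 peak at their own promoter. The share was 25.6% over all coding genes and 38.3% (37.4 to 39.3) over those with a CpG-rich TSS. The parents were not split by CpG content, so the part it played was not tested.

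The sequence under 290 pseudogene peaks aligned to the mRNA of the parent over at least 100 bp, with a median identity of 93.5% and a median length of 342 bp. The aligned stretch was centred in the coding sequence in 225 of them (77.6%), in the 5′ UTR in 56 (19.3%) and in the 3′ UTR in 9 (3.10%), and in 246 (84.8%) it was centred before the middle of the mRNA. Members had to lie within 1 kb of the annotated start of the pseudogene. Positions early in the mRNA, and few in the 3′ UTR, were therefore favoured by the selection itself. The midpoint was inside the annotated pseudogene in 199 of 354. Processed and transcribed processed pseudogenes were then grouped by identity to the closest coding mRNA, leaving out those that matched none over at least 100 bp. The share with a peak was higher where identity was higher, from 0.892% (0.521 to 1.42) of 1905 under 85% identity to 8.31% (6.59 to 10.3) of 903 at 98% or more. The share of CpG-rich TSSs moved with it, from 0.367% to 13.6%. Among the TSSs that were not CpG-rich, the share with a peak still went from 0.790% (0.443 to 1.30) to 6.92% (5.24 to 8.94).

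**Figure D5:**
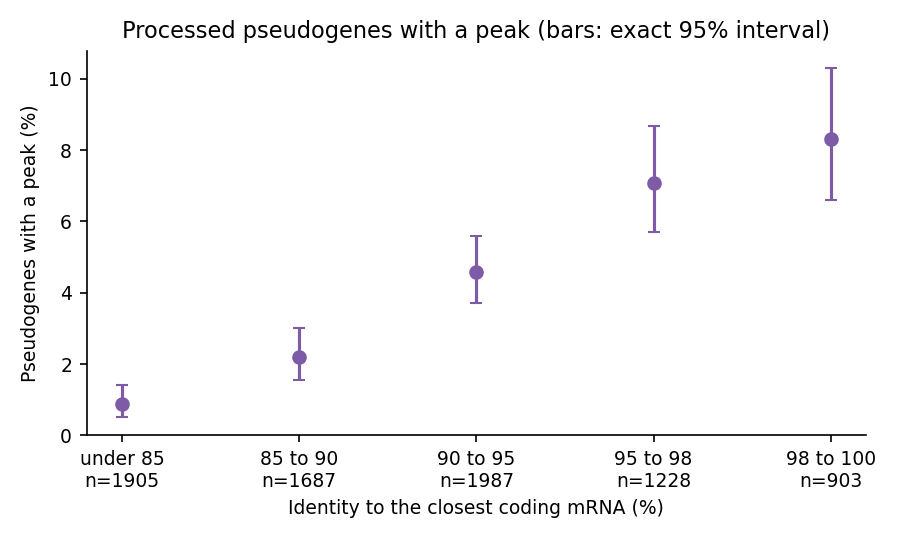
Percent of processed and transcribed processed pseudogenes with a peak midpoint within 1 kb of a TSS (vertical axis) by identity to the closest coding mRNA in percent (horizontal axis, number of pseudogenes below each class), with exact 95% binomial intervals. Pseudogenes that matched no coding mRNA over at least 100 bp are left out. The share goes from 0.892% in the lowest identity class to 8.31% in the highest.

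Of the 20 aligned pseudogene peaks with the largest −log10 p, 8 were at near-identical copies of mRNAs, with at least 90% of the peak aligned at 98% identity or more, limits that were chosen after the values had been seen. Gm5424 had the highest −log10 p of the class, 29.3, in a peak of 1238 bp. It is a copy of Ass1, which encodes argininosuccinate synthase of the urea cycle, and all 1238 bp aligned to the Ass1 mRNA with 99.4% identity. Gm21182 followed with 17.7 in a peak that did not align to its parent mRNA over 100 bp, and then Gm15459 with 17.3, a copy of the chaperone gene Hspa8 (99.5% identity over 615 bp). Gm10060 had 16.6, with only 231 of its 726 bp aligned, at 89.2% identity, and Gpx4-ps2 had 16.4. Gpx4 encodes the glutathione peroxidase that detoxifies lipid peroxides, and 589 of the 636 bp under the Gpx4-ps2 peak aligned to its mRNA with 99.7% identity. The middle of the Gpx4-ps2 alignment is shown, because it shows how little such a copy can differ from its mRNA. Capitals would mark bases that differ from the Gpx4 mRNA, and this stretch has none.
Gpx4-ps2 (chr10:45875524-45875643, plus strand): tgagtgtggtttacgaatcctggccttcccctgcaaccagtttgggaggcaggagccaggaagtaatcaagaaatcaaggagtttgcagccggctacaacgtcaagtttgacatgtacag
It differed at 0 of 120 bases from bases 417 to 536 of the Gpx4 mRNA.

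A group of 32 pseudogene peaks aligned to the parent mRNA over at least 90% of the peak with at least 98% identity, the same limits. Their median −log10 p was 8.66 (quartiles 6.03 and 12.3), against 6.78 in 52 peaks aligned as fully with lower identity and 7.54 in 206 peaks aligned over a smaller part. Of the 32, 30 were centred in the coding sequence, 5 were CpG-rich and 29 had a further match elsewhere in the genome. In 6 of the 32 (18.8%, 7.21 to 36.4) the exons of the parent itself also carried a peak outside its promoter, compared with 9 of the other 258 aligned members (3.49%, 1.61 to 6.52). Reads from such copies can be assigned to more than 1 place, and how the alignment treated them is not given in the sources used here, so the part this played was not tested.

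Over all members, 277 (43.3%, 39.5 to 47.3) matched at least 1 other place of the genome over 100 bp or more with 90% identity or more, compared with 4.92% of coding promoter peaks and 4.63% of peaks away from TSSs. The share was 71.2% (66.2 to 75.9) at pseudogenes and 8.77% (5.76 to 12.7) at the other members. Repeat-masked bases could not start a match, and at least 50% of the peak was masked in 42.4% of the peaks away from TSSs. This held for 8.61% of the members and 1.02% of the coding promoter peaks. Copies of repeats could therefore be missed most often away from TSSs, where the 4.63% can be too low. Of the 277, 39.4% (33.6 to 45.4) had another deposited peak at a matching place. Members with a match had a median −log10 p of 7.34 and those without one 6.82. Chromosome 12 held 49 members, 8.38% of its peaks. Of the 16 members whose sequence matched at least 5 other peaks, a limit set after the values had been seen, 13 were in a single stretch of that chromosome (chr12:17992557-23190199). They comprised 12 pseudogenes and Gm5953, matched 6 to 19 other peaks each and had −log10 p of 5.13 to 13.7.

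Several of the highest values among lincRNA and small RNA members were in a ribosomal RNA locus on chromosome 17. Gm26917 carried 3 peaks with −log10 p of 66.9, 73.4 and 76.2 within its 3329 bp, and the rRNA gene CT010467.1 nearby had 75.1. Gm23935, annotated as a miRNA in an intron of Zc3h7a, had the highest value of all members, 202, and matched 11 other places, 3 of its matching peaks being among the deposited ones. Rn7sk, the 7SK RNA that holds the elongation factor P-TEFb inactive, had 22.5 in a peak that covered the whole 331 bp gene, with 9 matches elsewhere and no peak at them. The part that repeated sequence played in these values was not tested.

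Among lincRNAs outside that locus, C130071C03Rik, a transcript near Mef2c, had 15.6 and Gm44644 had 14.0. Malat1, an abundant nuclear RNA of speckles, had several peaks along its body. It carried 3 in 6983 bp, with −log10 p of 15.8, 8.61 and 11.4 at 1190, 4585 and 6040 bp from its 5′ end. The first of these was assigned to Gm37376, a TEC gene lying inside Malat1, and had the highest value of the TEC class. None of the 3 overlapped the 5′ end of Malat1. Neat1, the scaffold of paraspeckles and a neighbour of Malat1, had a single peak of 6.83 at 316 bp from its 5′ end.

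A list of known noncoding genes was also examined. It covered adipose tissue, imprinting and growth control, and also RNAs of development, neurons and epithelia and small RNAs such as Rn7sk. Of the 106 autosomal genes of this list more than 1 kb from a coding TSS, 15 had a peak (14.2%, 8.14 to 22.3). The share was 2.54% over all noncoding genes and 24.2% (21.5 to 27.0) over those with a CpG-rich TSS. The list was not split by CpG content, so the part it played was not tested. The long RNAs accounted for 8 of 33 (24.2%, 11.1 to 42.3) and the miRNAs for 6 of 68 (8.82%, 3.31 to 18.2). Miat had 7.54, and the snoRNA host genes Snhg6 and Snhg17 had 7.37 and 5.89, with midpoints 111 and 430 bp from the gene 5′ end. Pvt1, next to Myc, had 2 members, with 7.91 at its 5′ end, where the small RNA Gm27913 is annotated, and 7.21 at an internal TSS, 180246 bp from that end. Peg13, an imprinted RNA in an intron of Trappc9, had 6.98. Genes of the list with no peak in this window, such as Meg3 and Kcnq1ot1, cannot be called unbound, because the depth of each library is unknown.

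Of the 38 miRNA members, 21 were at genes with a mature sequence in the RefSeq table for GRCm38.p6. Their 35 mature sequences had 35 distinct seeds, a count that takes only the nearest gene of each peak and so leaves out Mir9-1, which has the same seeds as Mir9-3. Mature sequences of the named miRNA genes are given below from RefSeq, 5′ to 3′, with the seed (bases 2 to 8) in capitals, because the seed decides which mRNAs are paired.
miR-203-3p: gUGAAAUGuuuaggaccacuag
miR-148a-3p: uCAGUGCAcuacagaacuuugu
miR-9-5p: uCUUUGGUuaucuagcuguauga
miR-136-5p: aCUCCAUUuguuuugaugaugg
miR-200c-3p: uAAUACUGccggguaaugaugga
let-7i-5p: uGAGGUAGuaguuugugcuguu
miR-7214-3p: cUCAGUCCugaccccuugagcgca
miR-8120: uGUGCCUUgcaacuuccgagcc
The peak at Mir203, a miRNA of epithelial differentiation, had a −log10 p of 7.40 and a GC content of 74.3%, with its midpoint 261 bp before the hairpin. Mir148a, which is raised during adipogenesis, had 5.13 at 716 bp before the hairpin. Mir9-1 and Mir9-3 give the same mature miR-9-5p, which is abundant in neurons, and both had a peak, of 7.05 (nearest to Mir3093) and 5.03. A further peak at the host gene Mir9-3hg had 5.13. Mir136, in the imprinted region of Rtl1 and on the strand opposite to it, had 8.36 at 36 bp before the hairpin. Mir200c and Mirlet7i lay within 1 kb of peaks whose nearest genes were Gm15884 (7.16) and D630033A02Rik (6.16). Mir7214 and Mir8120 had 10.2 and 8.51, and Gm22408, over an exon of Plppr4, had 11.2.

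The highest antisense value was below the maxima of the lincRNA, miRNA, pseudogene, TEC and other small RNA classes. It was above those of the other long noncoding genes and the antigen receptor segments. Gm44588, opposite the uromodulin gene Umod, had 15.1, and Gm17035, opposite the stress-response gene Ndrg1, had 14.4 in the longest peak of all members, 1556 bp. Both were over coding exons, and neither was CpG-rich, with CpG ratios of 0.08 and 0.16. Gm12462 in an intron of Pax5 had 9.98, 1600020E01Rik at Pcbp1 had 9.82 and Gm47471 in an intron of Ptprm had 9.50. Hoxb5os, in the HoxB cluster, had 8.09 and was named after its value had been seen.

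In the smaller classes, the peaks at TEC genes after Gm37376 were Gm10654 with 11.0, Gm37844 with 9.41, Gm42692 near Sox2 with 8.94 and Gm5953 with 8.31, the last with 35 matches elsewhere. The small nuclear RNA genes Gm24859, Gm26226 and Gm23898 had 11.0, 10.4 and 8.65. Other long noncoding genes were led by Gm16551 near Onecut1 with 11.2, Gm14222 with 11.0, Spata5l1 with 10.5, Gm13587 with 8.24 and 1810026B05Rik with 7.78. The 3 antigen receptor segments were Igkc with 14.6 and Igkv10-94 and Trdj2 with 6.21 each.

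The coding annotation used decides which peaks count as noncoding only. In RefSeq, 34 of the 639 members (5.32%, 3.71 to 7.36) were within 1 kb of a coding mRNA start, among them 7 antisense and 16 pseudogene members and those at Mir8120 and Spata5l1. A RefSeq noncoding transcript started within 1 kb of 137 members (21.4%, 18.3 to 24.8), ranging from 9.89% of the pseudogene members to 37.6% of the lincRNA and 57.9% of the miRNA members.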

How the data were processed

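TET2 ChIP-seq was analysed from 1 TET2 library and 1 Input library. The authors aligned the reads with Bowtie and called peaks against Input with MACS2 2.1.0, per the submitters' processing notes, and deposited for each peak its interval and a −log10 p, which depends on depth and on the Input. The p setting stated for the calling corresponds to a −log10 p of 5, yet 2130 of the 13828 autosomal peaks were below 5, down to 3.07, so the list was not limited at that setting. The deposited list carries no read totals, and the handling of reads with several alignments is not given in the sources used here. The labels name mm10 and the methods name GRCm39. On GRCm38 (the same assembly as mm10), 0 autosomal peaks passed a chromosome end and 0 midpoints fell in a gap, so GRCm38 and GENCODE M21 were used, without conversion. The 275 peaks on X, Y and mitochondrial DNA were left out.

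Each peak was placed by its midpoint and given to the nearest noncoding TSS. With 1 library, no p-values were computed, and shares have exact 95% binomial intervals. Matches elsewhere came from blastn 2.17.0 (at least 100 bp and 90% identity), in which repeat-masked bases could not start a match. Parents came from coding transcripts of GENCODE. Member selection, offsets, nearest genes, the motif search and the CpG ratio were tested on simulated data. The blastn matches, the parent assignment and the RefSeq comparison were not. Python 3.11.15, pandas 2.3.3, SciPy 1.17.1 and pysam 0.24.0 were used. The members and lists were chosen with earlier results of these data known. Named were the 5 members with the largest −log10 p in each class, members at a list of known noncoding genes, and the 2 nearest each limit. Alternatives changed distances, TSS sets, thresholds and windows.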

Additional observations from a re-analysis of the deposited data

How the results depend on the processing

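Of 107 values computed under alternative settings, 89 stayed within the counting interval of the reported value, or within 1.5 times the count of members, and 18 did not. Members made up 5.79% of the autosomal peaks with 2 kb for both distances, 3.67% with 500 bp from the noncoding TSS, 4.16% with more than 3 kb from every coding TSS, and 5.67% without peaks that were at least 50% repeat-masked. With 2 kb the median −log10 p was 6.80 and the CpG-rich share 32.8%. With 500 bp the pseudogene share was 60.2% and the CpG-rich share 45.4%. With 3 kb the pseudogene share was 59.5%, the antisense share 7.65% and the share inside a coding gene 25.7%. The CpG-rich share was 20.7% with a ratio of at least 0.75 and a GC content of at least 55%. In windows of 50 bp each side, which are shorter by construction, matches fell to 2.19% for C/EBP, 16.6% for SP1, 11.9% for AP-2, 1.72% for ETS and 2.82% for the E-box. A looser YY1 string, AANATGGC, matched 4.69% of the members. It was run before AAGATGGCG, the string first intended, and is therefore given as an alternative chosen after seeing the data, as is the addition of RefSeq mRNA starts, which moved no value outside its interval. No paired analysis was possible because TET2 binding was measured once, and for the same reason no replicate could be left out. The depth of each library is unknown, so a gene without a peak cannot be called unbound.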
